A study of Mus musculus with 9 samples.

Results

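The messengers of 9 genes that set or limit the rate of protein synthesis are described here in B16.SIY cells after knockdown of Decr2. These genes are the 4 kinases of the translation initiation factor eIF2 (Eif2ak1, Eif2ak2, Eif2ak3 and Eif2ak4), the 2 regulatory subunits of the eIF2 phosphatase (Ppp1r15a and Ppp1r15b) and 3 brakes on translation (Eif4ebp1, Sesn2 and Ddit4). They were chosen by name, and all 9 are among the 10762 genes of the deposited table. B16.SIY is a mouse melanoma line of C57BL/6 origin that makes the model peptide antigen SIY joined to the red fluorescent protein dsRED. Its cells were grown in DMEM with fetal calf serum, infected with lentivirus that carried a short hairpin RNA (shRNA), and selected with puromycin. There were 3 libraries from the stable line with Decr2 shRNA1, 3 from the line with Decr2 shRNA2 and 3 from the line with the control hairpin SHC002. All 9 libraries therefore share the antigen, the virus and the selection, and each hairpin is represented by 1 stable line, of which the labels do not say whether it is a clone or a pool. Decr2 encodes a peroxisomal reductase that acts in the breakdown of unsaturated fatty acids. The title of the study mentions tumors, but per the labels the material was a cultured line.

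Each of the eIF2 kinases senses a different stress and phosphorylates the alpha subunit of eIF2, which lowers general initiation while raising translation of a few messengers such as that of the transcription factor ATF4. The phosphatase PP1 removes the mark when guided to eIF2 by the protein of Ppp1r15a (GADD34), which stress induces, or by that of Ppp1r15b (CReP), which cells make constitutively. A second route to slower translation runs through the kinase complex mTORC1: the proteins of Sesn2 and Ddit4 hold mTORC1 back, and 4E-BP1, the product of Eif4ebp1, blocks the cap-binding factor eIF4E when mTORC1 is low. Messenger levels, which are the only quantity measured here, do not report phosphorylation or kinase activity.

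Levels are given on the deposited log2 scale, where 1 unit is a 2-fold difference, and a fold change is the difference between group means on that scale. Calls were made where limma, a linear model fitted across all genes, gave an adjusted p under 0.05. Decr2, the target of the hairpins, had log2 values of 2.87, 2.51 and 3.18 with shRNA1, 0.84, 1.18 and 1.55 with shRNA2 and 3.96, 4.10 and 3.71 in control libraries, so each hairpin group lay below the controls. Its level fell by 1.07 on the log2 scale with shRNA1 (SE 0.23, adjusted p = 0.0195, limma) and fell by 2.73 with shRNA2 (SE 0.23, adjusted p = 0.000568, limma). The call with shRNA1 was lost without shRNA1 library 1 (adjusted p = 0.0579) and without control library 1 (0.0872) or 2 (0.0537). The table held 10 of 10 melanocyte markers and 4 of 34 markers of other cell types, and the summed level of those 4 stayed low, at 18.7 to 33.6 for 3 fibroblast markers and 2.33 to 5.43 for 1 endothelial marker on the linear scale. The fibroblast ranges of each hairpin overlapped that of the controls. The endothelial marker Plvap was at 3.43 to 4.11 with shRNA1, just above the 2.85 to 3.43 of control libraries, and at 2.33 to 5.43 with shRNA2, which overlapped them; its part in the results was not tested. No leukocyte, epithelial or erythroid marker is listed. Summed melanocyte markers ranged over 15970 to 24140 with shRNA1, 16080 to 28860 with shRNA2 and 22570 to 25450 in control libraries. In such bulk libraries fewer cells of a type and less RNA per cell cannot be told apart. Libraries carry the digits 0, 1 and 2 in their titles, and those numbered 0 stood apart: 23.6% of genes differed between digit 0 and the other digits. For that reason results are also given without the 3 libraries numbered 0, an alternative that leaves 2 libraries per group and calls far more genes.

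**Figure D1:**
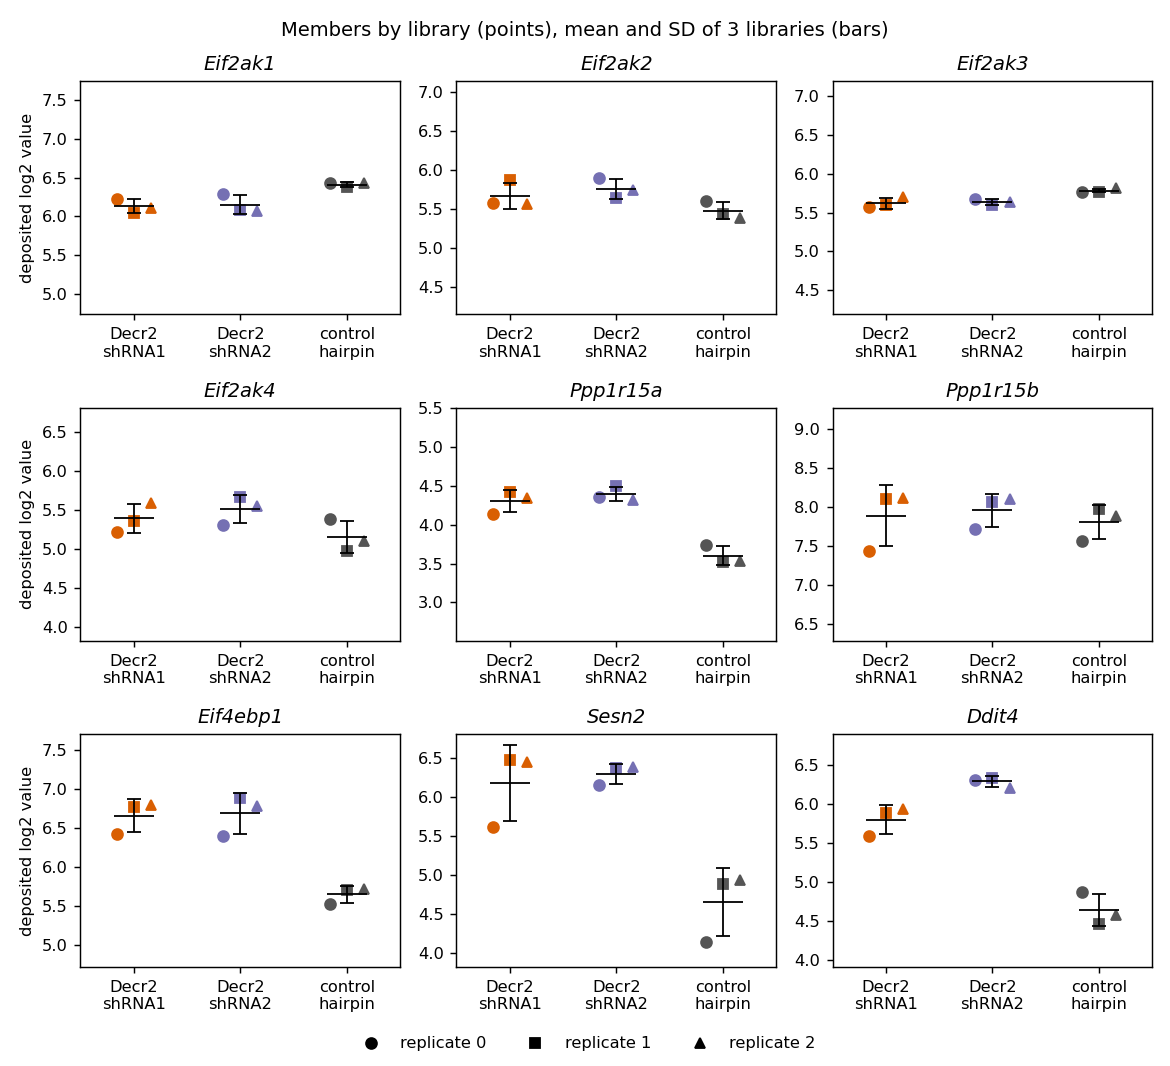
Deposited log2 value of each of the 9 genes (vertical axes) in every library, by group: points are libraries with 1 symbol per replicate digit, and bars show the mean and SD of 3 libraries. For Ppp1r15a, Eif4ebp1, Sesn2 and Ddit4 all 6 hairpin libraries lie above all 3 control libraries; for Eif2ak1 and Eif2ak3 all 6 lie below.

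The messengers of the brakes and of the stress-induced phosphatase subunit rose with both Decr2 hairpins. No kinase passed the test with either hairpin over all 9 libraries, which for 4 genes is near the share of all genes called. With the replicate digit as a block, Eif2ak1 passed with each hairpin (adjusted p = 0.0179 and 0.0240, limma). Of the 9 genes, 4 were called higher and 0 lower with shRNA1, where 12.4% of all genes were called (6.92% higher, 5.49% lower), and the same counts were found with shRNA2, where 12.9% were called (7.27% higher, 5.67% lower). The 4 were the same genes, Ppp1r15a, Eif4ebp1, Sesn2 and Ddit4, in both comparisons; of all genes, 7.55% were called in the same direction with both (4.54% higher). The 2 comparisons share their control libraries. At an unadjusted p under 0.05, 4 of the 9 genes were higher and 2 lower (Eif2ak1 and Eif2ak3) with shRNA1, against 15.1% and 13.6% of all genes. At that level 6 were higher (Eif2ak2 and Eif2ak4 besides the 4) and 1 lower (Eif2ak1) with shRNA2, against 15.8% and 13.5% of all genes. In the mean of both hairpins over control, which called 17.6% of genes (9.69% higher, 7.89% lower), those 4 were higher and Eif2ak1 was lower. The median fold change of the 9 genes in that mean was 0.30 on the log2 scale, against -0.0006 over all 10762 genes. All 6 hairpin libraries lay above the control range for 4 of the 9 genes, against 12.0% of all genes, and below it for 2, against 10.9% of all genes.

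**Figure D2:**
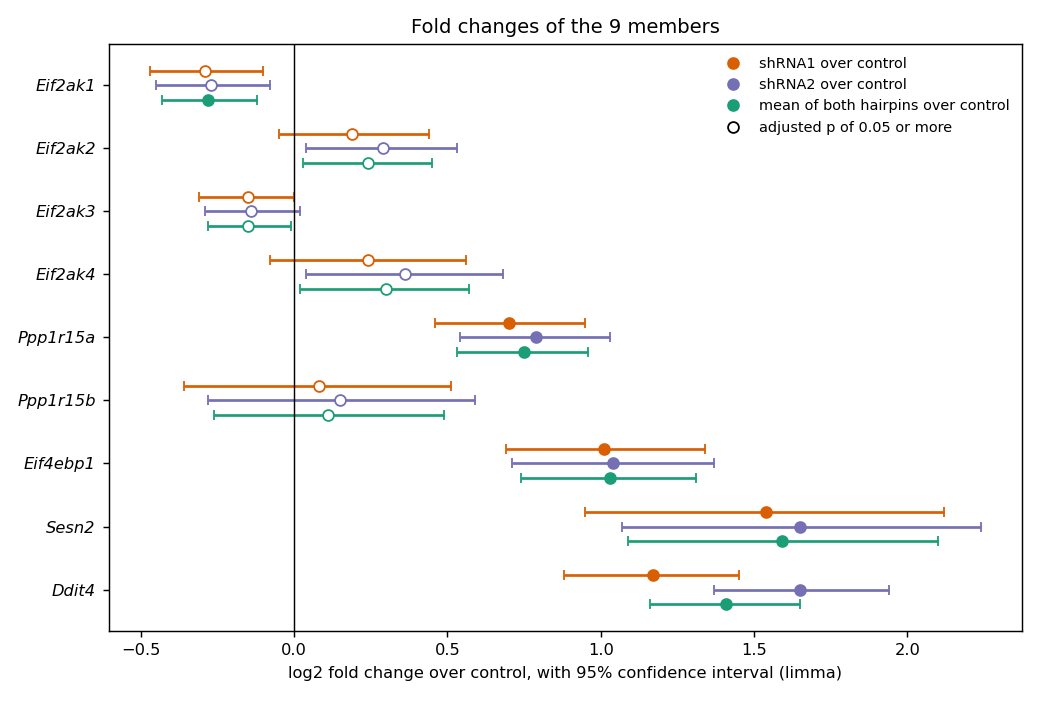
Log2 fold change over control (horizontal axis) of the 9 genes with its 95% confidence interval, for shRNA1, shRNA2 and the mean of both hairpins; open points had an adjusted p of 0.05 or more. The filled points to the right are Ppp1r15a (0.70 and 0.79), Eif4ebp1 (1.01 and 1.04), Sesn2 (1.54 and 1.65) and Ddit4 (1.17 and 1.65) with shRNA1 and shRNA2.

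Among the kinases, Eif2ak1 encodes HRI, which responds to lack of heme and to mitochondrial stress. It lies on chromosome 5 at 143817788 to 143904251 (plus strand, GRCm38). Its log2 values were 6.22, 6.05 and 6.11 with shRNA1, 6.29, 6.08 and 6.07 with shRNA2 and 6.43, 6.38 and 6.43 in control libraries. Every hairpin library was below every control library, as for 10.9% of all genes. The fold change was -0.29 with shRNA1 (SE 0.08, 95% interval -0.47 to -0.10, adjusted p = 0.0513, limma) and -0.27 with shRNA2 (SE 0.08, -0.45 to -0.08, adjusted p = 0.0637, limma), so neither hairpin alone passed. In the authors' deposited table the adjusted p-values of Eif2ak1 were 0.05269 with shRNA1 and 0.06504 with shRNA2. In the mean of both hairpins Eif2ak1 fell by 0.28 on the log2 scale (SE 0.07, 95% interval -0.43 to -0.12, adjusted p = 0.0279, limma). With the replicate digit as a block the 3 adjusted p-values were 0.0179 with shRNA1, 0.0240 with shRNA2 and 0.00946 for the mean, all past the threshold, in a fit that called 24.6%, 24.0% and 30.3% of all genes in the same order. The unblocked call of the mean was lost when any one of 7 libraries was left out: shRNA1 library 1 (adjusted p = 0.0525) or 2 (0.0559), shRNA2 library 1 (0.0629) or 2 (0.0638), and control library 0 (0.0763), 1 (0.0907) or 2 (0.117). Eif2ak1 shares 1548 bp on the opposite strand with Aimp2, a scaffold subunit of the tRNA synthetase complex, which fell by 0.53 on the log2 scale in the mean of both hairpins (SE 0.09, adjusted p = 0.00492, limma). The overlap is of whole gene spans, and whether it holds exons of both genes was not examined. Whether counting used strand is not given in the sources used here. How far the overlap bears on either level was not tested. Eif2ak1 also shares 6945 bp on the opposite strand with Ankrd61, a gene absent from the deposited values.

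Eif2ak3 encodes PERK, the kinase of the endoplasmic reticulum (ER). The gene lies on chromosome 6 at 70844515 to 70905245 (plus strand, GRCm38). It had 5.57, 5.60 and 5.70 with shRNA1, 5.68, 5.60 and 5.64 with shRNA2 and 5.77, 5.76 and 5.81 in control libraries on the log2 scale. The 6 hairpin libraries again lay below the 3 controls, as for 10.9% of all genes, but the gaps were small. The fold change was -0.15 with shRNA1 (SE 0.07, 95% interval -0.31 to -0.001, adjusted p = 0.170, limma) and -0.14 with shRNA2 (SE 0.07, -0.29 to 0.02, adjusted p = 0.216, limma), and no alternative of the processing called it.

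Eif2ak2 encodes PKR, which binds double-stranded RNA and is itself induced by interferon. The gene lies on chromosome 17 at 78852564 to 78882573 (minus strand, GRCm38). Its log2 values were 5.58, 5.87 and 5.57 with shRNA1, 5.90, 5.64 and 5.75 with shRNA2 and 5.60, 5.44 and 5.39 in control libraries. The shRNA1 libraries overlapped the controls and the shRNA2 libraries lay above them, as for 20.1% of all genes. The fold change was 0.19 with shRNA1 (SE 0.11, 95% interval -0.05 to 0.44, adjusted p = 0.280, limma) and 0.29 with shRNA2 (SE 0.11, 0.04 to 0.53, adjusted p = 0.118, limma). Without the libraries numbered 0 it was 0.30 with shRNA1 (adjusted p = 0.0442, limma), 0.28 with shRNA2 (adjusted p = 0.0523) and 0.29 in their mean (adjusted p = 0.0250), in fits that called 34.5%, 37.3% and 41.4% of all genes in that order.

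Eif2ak4 encodes GCN2, which binds uncharged tRNA when amino acids run short. The gene lies on chromosome 2 at 118388618 to 118475234 (plus strand, GRCm38). Values on the log2 scale were 5.22, 5.36 and 5.59 with shRNA1, 5.31, 5.66 and 5.55 with shRNA2 and 5.38, 4.97 and 5.10 in control libraries, and both hairpin groups overlapped the controls. The overlap came from digit 0: control library 0 was the highest control, and the hairpin libraries numbered 0 were the lowest of their groups. Over all 9 libraries the fold change was 0.24 with shRNA1 (SE 0.14, 95% interval -0.08 to 0.56, adjusted p = 0.299, limma) and 0.36 with shRNA2 (SE 0.14, 0.04 to 0.68, adjusted p = 0.129, limma). Without the libraries numbered 0 it was 0.44 with shRNA1 (adjusted p = 0.00773, limma) and 0.57 with shRNA2 (adjusted p = 0.00224), a difference of more than 1.5 times in size for each. Over all libraries 0 of 4 kinases were called with either hairpin, where 12.4% and 12.9% of all genes were called (limma). In the mean of both, 2 were higher and 2 lower at an unadjusted p under 0.05 (limma), as were 17.5% and 15.7% of all genes. Without digit 0, 3 of 4 were called in the mean, Eif2ak2 and Eif2ak4 higher and Eif2ak1 lower (20.9% of all genes were higher and 20.5% lower in that fit).

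Of the phosphatase subunits, the inducible Ppp1r15a was higher and the constitutive Ppp1r15b showed no change past the threshold. Ppp1r15a had log2 values of 4.14, 4.42 and 4.34 with shRNA1, 4.36, 4.49 and 4.31 with shRNA2 and 3.74, 3.52 and 3.53 in control libraries. The lowest hairpin library stood above the highest control library, as for 12.0% of all genes. The level rose 1.63-fold with shRNA1 (log2 fold change 0.70, SE 0.11, 95% interval 0.46 to 0.95, adjusted p = 0.00627, limma) and 1.73-fold with shRNA2 (0.79, SE 0.11, 0.54 to 1.03, adjusted p = 0.00407, limma). Ppp1r15a shares 717 bp with Tulp2 on the opposite strand, a gene that was not analysed here. Ppp1r15a itself lies on chromosome 7 at 45522916 to 45526268 (minus strand, GRCm38).

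Ppp1r15b, on chromosome 1 from 133131143 to 133139783 (plus strand), had log2 values of 7.44, 8.10 and 8.12 with shRNA1, 7.72, 8.06 and 8.10 with shRNA2 and 7.56, 7.97 and 7.89 in control libraries. The groups overlapped, and in each of them library 0 was the lowest. The fold change was 0.08 with shRNA1 (SE 0.19, 95% interval -0.36 to 0.51, adjusted p = 0.832, limma) and 0.15 with shRNA2 (SE 0.19, -0.28 to 0.59, adjusted p = 0.660, limma). Its value with shRNA1 turned negative without shRNA1 library 1 (-0.03), shRNA1 library 2 (-0.04) or control library 0 (-0.05), and without all 3 libraries numbered 0 it was 0.18 (adjusted p = 0.0291, limma).

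Promoters are shown for Ppp1r15a, Sesn2 and Ddit4, since these genes were called together with both hairpins and have an entry in the RefSeq table used here (assembly GRCm38.p6). Each window of 300 bases runs from 250 before to 50 after the annotated start, 5′ to 3′ on the strand of the gene. The single capital letter at base 251 marks the start, and runs of capitals mark motif matches.
Ppp1r15a (chr7:45526219-45526518, minus strand): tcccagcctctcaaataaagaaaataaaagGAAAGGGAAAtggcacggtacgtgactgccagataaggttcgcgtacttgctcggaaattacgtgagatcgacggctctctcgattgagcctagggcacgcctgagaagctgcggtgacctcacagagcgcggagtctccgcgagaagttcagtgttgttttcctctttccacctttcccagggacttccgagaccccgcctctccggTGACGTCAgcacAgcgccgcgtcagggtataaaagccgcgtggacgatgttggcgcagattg
Sesn2 (chr4:132510407-132510706, minus strand): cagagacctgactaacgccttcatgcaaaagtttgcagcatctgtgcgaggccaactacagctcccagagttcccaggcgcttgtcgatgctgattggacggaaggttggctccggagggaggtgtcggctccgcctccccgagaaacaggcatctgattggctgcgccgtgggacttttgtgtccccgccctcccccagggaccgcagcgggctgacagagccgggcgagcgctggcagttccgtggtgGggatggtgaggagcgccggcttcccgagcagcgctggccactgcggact
Ddit4 (chr10:59951721-59952020, minus strand): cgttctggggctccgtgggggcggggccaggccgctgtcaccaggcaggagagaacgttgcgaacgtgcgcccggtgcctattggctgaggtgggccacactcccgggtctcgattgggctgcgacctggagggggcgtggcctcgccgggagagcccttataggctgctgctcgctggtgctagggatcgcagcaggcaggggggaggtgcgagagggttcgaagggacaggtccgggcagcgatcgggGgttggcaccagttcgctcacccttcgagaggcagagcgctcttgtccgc
Of the 9 genes 7 had a window, 8 windows in all, and Eif4ebp1 and Ppp1r15b had none. In these windows 4 motifs were searched on both strands. The core of the C/EBP-ATF response element, TGATGNAA, which ATF4 can bind, was in 0 of the 8 windows and in 3.97% of all 32851 promoters of the table. The ER stress response element, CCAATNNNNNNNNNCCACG, was also in none, against 0.119% of all promoters. The Ppp1r15a window held a full cyclic AMP response element, TGACGTCA, beginning at position -12 from the start (1.79% of all promoters hold one; this motif was added after the sequences had been seen). It also held 1 match to the core of the interferon-stimulated response element, GAAANNGAAA, beginning at position -220 and not overlapping the first (3.44% of all promoters). Eif2ak2 had a match to the same core, GAAAACGAAA, beginning at position 19 from its start. A match is a description of letters in a window, and the absence of one says nothing of binding elsewhere.

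Eif4ebp1, Sesn2 and Ddit4, the brakes, rose with both hairpins. For each of the 3, all 6 hairpin libraries lay above the control range, as for 12.0% of all genes. Eif4ebp1, on chromosome 8 from 27260329 to 27276674 (plus strand), had log2 values of 6.42, 6.77 and 6.80 with shRNA1, 6.40, 6.89 and 6.79 with shRNA2 and 5.53, 5.71 and 5.72 in control libraries. The hairpin lines lay close to each other and about 1 log2 unit above the controls. The rise was 2.02-fold with shRNA1 (log2 fold change 1.01, SE 0.15, 95% interval 0.69 to 1.34, adjusted p = 0.00479, limma) and 2.06-fold with shRNA2 (1.04, SE 0.15, 0.71 to 1.37, adjusted p = 0.00428, limma).

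Sesn2 encodes sestrin 2, a leucine-binding protein that restrains mTORC1 through the GATOR complexes, and its gene spans 132492032 to 132510501 of chromosome 4 (minus strand). Its log2 values were 5.62, 6.48 and 6.45 with shRNA1, 6.15, 6.37 and 6.38 with shRNA2 and 4.14, 4.88 and 4.93 in control libraries. Library 0 was the lowest of each group, and the SD was wider with shRNA1 (0.49) and in control libraries (0.44) than with shRNA2 (0.13). Even so the ranges stayed apart. Sesn2 rose 2.90-fold with shRNA1 (log2 fold change 1.54, SE 0.26, 95% interval 0.95 to 2.12, adjusted p = 0.00872, limma) and 3.14-fold with shRNA2 (1.65, SE 0.26, 1.07 to 2.24, adjusted p = 0.00616, limma), and in the mean of both its fold change ranked 43 from the highest of all genes. The annotation places Gm12981 on the same strand over 6089 bp of Sesn2, a gene that was not analysed here.

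Ddit4 encodes REDD1, which restrains mTORC1 through the TSC complex and is induced by hypoxia, energy shortage and other stresses, and its gene spans 59949669 to 59951834 of chromosome 10 (minus strand). Its log2 values were 5.59, 5.89 and 5.93 with shRNA1, 6.31, 6.34 and 6.21 with shRNA2 and 4.87, 4.46 and 4.57 in control libraries. All 3 groups were separate, with shRNA2 highest. Of all genes, 12.0% had all 6 hairpin libraries above the controls and 7.72% had every shRNA2 library above every shRNA1 library. The share with both was not counted. It rose 2.24-fold with shRNA1 (log2 fold change 1.17, SE 0.13, 95% interval 0.88 to 1.45, adjusted p = 0.00166, limma) and 3.14-fold with shRNA2 (1.65, SE 0.13, 1.37 to 1.94, adjusted p = 0.000351, limma). By the size of its moderated t statistic it ranked 10 of 10762 genes in the mean of both hairpins, against 85 for Eif4ebp1, 98 for Ppp1r15a and 178 for Sesn2.

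**Figure D3:**
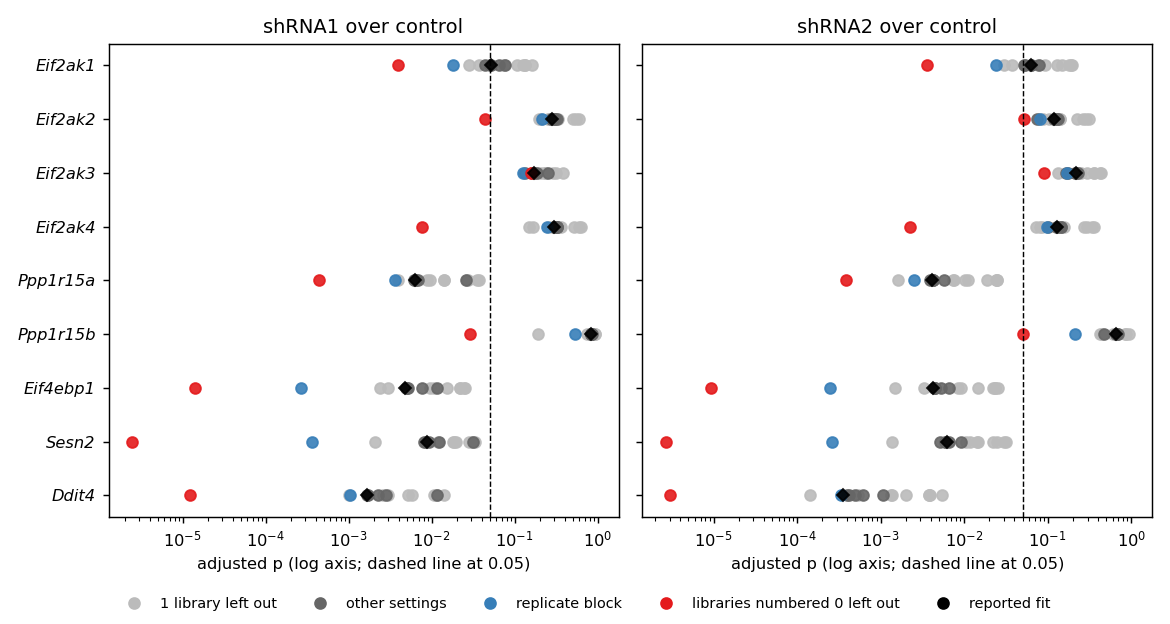
Adjusted p of each of the 9 genes (horizontal log axis, dashed line at 0.05) for each hairpin over control, as reported and under each of 16 alternatives of the processing. All points of Ppp1r15a, Eif4ebp1, Sesn2 and Ddit4 lie left of the line (highest 0.0372, for Ppp1r15a with shRNA1), those of Eif2ak3 all lie right of it, and those of Eif2ak1 fall on both sides.

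The calls of these 4 genes with each hairpin held under all 16 alternatives, including each library left out in turn. How many of all genes held likewise was not counted, and the 4 were singled out as called in these same libraries. Of all 10762 genes, 813 were called in the same direction with both hairpins over all 9 libraries. That number was 188 without control library 1 and 189 without control library 2. Over those alternatives the log2 fold change with shRNA1 and with shRNA2 ran from 0.64 to 0.85 and from 0.74 to 0.87 for Ppp1r15a, from 0.94 to 1.14 and from 0.94 to 1.19 for Eif4ebp1, from 1.28 to 1.82 and from 1.40 to 1.79 for Sesn2, and from 1.08 to 1.39 and from 1.56 to 1.77 for Ddit4.

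The hairpins were also compared with each other, shRNA2 over shRNA1. Of all genes 0.455% were called in that comparison, and 0 of the 9 genes were called (limma; at an unadjusted p under 0.05 there was 1, Ddit4, which was higher, as were 5.33% of all genes, while 4.71% were lower). The 95% intervals of the difference were -0.16 to 0.33 for Ppp1r15a, -0.30 to 0.35 for Eif4ebp1 and -0.47 to 0.70 for Sesn2 on the log2 scale. Differences of any size within those bounds remain compatible with these libraries. Ddit4 was higher with shRNA2 by 0.49 (SE 0.13, 95% interval 0.20 to 0.77, unadjusted p = 0.00369, adjusted p = 0.189, limma), and every shRNA2 library lay above every shRNA1 library, as for 7.72% of all genes. Without the libraries numbered 0 that difference was 0.37 with an adjusted p of 0.0219, in a fit that called 8.87% of genes, and over all 16 alternatives it ran from 0.37 to 0.55. Decr2 itself differed between the hairpins by -1.66 (SE 0.23, adjusted p = 0.0233, limma), with lower levels under shRNA2; that call was lost with only the groups compared in the fit (adjusted p = 0.116) and in 7 of the 9 fits that leave out 1 library (0.0516 to 0.137).

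Differences within pairs of the same digit are given as a description, since digits 1 and 2 were not clearly paired across groups. For Ddit4 the difference from the control library of the same digit was 0.71, 1.43 and 1.36 with shRNA1 and 1.44, 1.88 and 1.64 with shRNA2, for digits 0, 1 and 2. For Ppp1r15a it was 0.41, 0.89 and 0.81 with shRNA1 and 0.62, 0.96 and 0.78 with shRNA2. In both genes and both hairpins the pair of digit 0 had the smallest difference. All 12 differences were above 0, which the separate ranges of hairpin and control libraries already require. Eif4ebp1 gave 0.89, 1.06 and 1.09 with shRNA1 and 0.87, 1.18 and 1.07 with shRNA2. Sesn2 gave 1.48, 1.61 and 1.52 with shRNA1 and 2.01, 1.50 and 1.45 with shRNA2, so its low level in libraries numbered 0 was shared by hairpin and control libraries. Eif2ak4 was the kinase with the most uneven pairs, at -0.16, 0.39 and 0.50 with shRNA1 and -0.07, 0.69 and 0.46 with shRNA2.

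**Figure D4:**
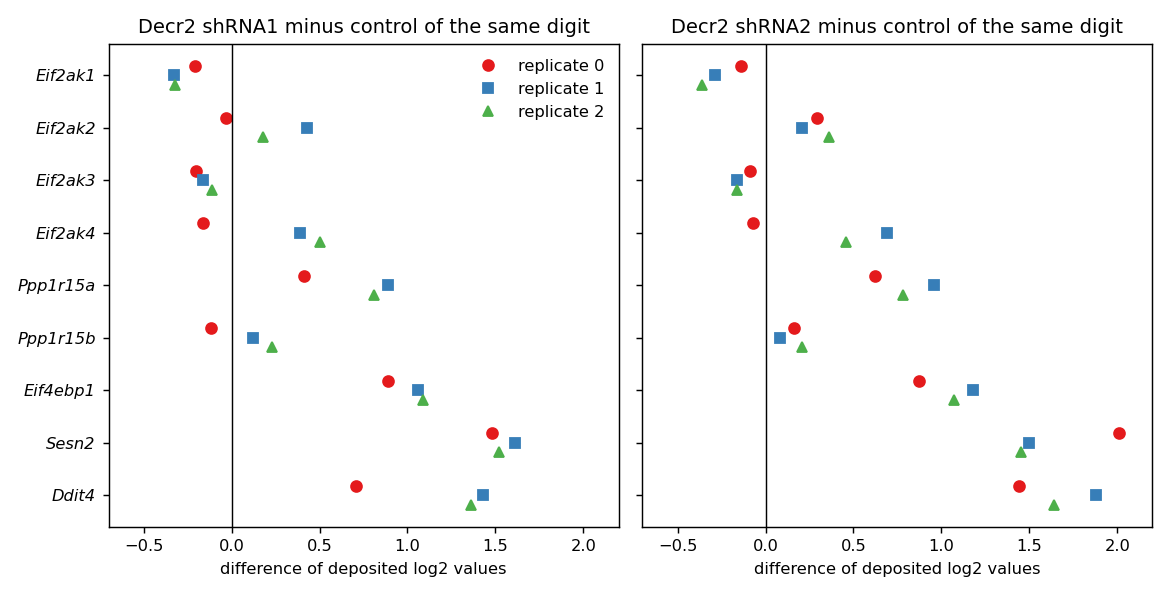
Difference of deposited log2 values between each hairpin library and the control library of the same digit (horizontal axes) for the 9 genes, with 1 symbol per digit, shRNA1 on the left and shRNA2 on the right. All pairs of Ppp1r15a, Eif4ebp1, Sesn2 and Ddit4 lie above 0 and all pairs of Eif2ak1 and Eif2ak3 below 0, as their separate ranges require. For Eif2ak4 the pairs of digit 0 (-0.16 and -0.07) lie below 0 and the others above.

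Of the 9 genes 3 also differed by digit itself, in a limma fit with group and digit as terms, against 23.6% of all genes (11.4% lower in digit 0). Libraries numbered 0 were lower, with a log2 difference from the mean of the others of -0.47 for Ppp1r15b (SE 0.07, adjusted p = 0.00423), -0.33 for Eif4ebp1 (SE 0.07, adjusted p = 0.0109) and -0.61 for Sesn2 (SE 0.11, adjusted p = 0.00733). Ddit4 (0.02) and Ppp1r15a (-0.02) had values near 0 in that comparison and did not pass. What the digit stands for is not stated in the labels.

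Genes that act beside these 9 were described through 7 lists of 124 genes, of which 118 were in the table. Counts are of the mean of both hairpins over control, in which 9.69% of all genes were called higher and 7.89% lower. With the replicate block those shares were 16.2% and 14.1%, and without the libraries numbered 0 they were 20.9% and 20.5%.

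Of the partners of the phosphatase, the 3 catalytic subunits of PP1 and 5 of its inhibitors, 0 of 8 rose (also 0 at an unadjusted p under 0.05, limma) and 2 fell, with a median of -0.05. Ppp1cc, the gamma catalytic subunit, fell by 0.38 on the log2 scale (SE 0.06, adjusted p = 0.00327, limma). The other, Ppp1r10, a nuclear targeting subunit that was named after its value was seen, fell by 0.52 (SE 0.13, adjusted p = 0.0265). Without control library 1 or 2, or without shRNA2 library 1, 1 of the 8 fell.

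Among eIF2 subunits, the exchange factor eIF2B and related factors, 0 of 16 rose (2 at an unadjusted p under 0.05, limma) and 7 fell, with a median of -0.22. Eif5, which triggers GTP hydrolysis by eIF2, fell by 0.43 (SE 0.07, adjusted p = 0.00591, limma). Eif2s1, the alpha subunit on which the kinases act, had a mean level of 8.54 ± 0.11 with shRNA1, 8.43 ± 0.11 with shRNA2 and 8.88 ± 0.01 in control libraries (SD, n = 3 each) and fell by 0.39 (SE 0.07, adjusted p = 0.00850, limma). The eIF2B subunits Eif2b3 and Eif2b1 fell by 0.40 (SE 0.08, adjusted p = 0.0134) and by 0.30 (SE 0.06, adjusted p = 0.0136), and both calls were lost without control library 1 (adjusted p = 0.0790 for Eif2b3 and 0.0726 for Eif2b1). The others that fell, named after their values were seen, were Bzw2 by 0.51 (SE 0.11, adjusted p = 0.0162, limma), Eif2s3x by 0.33 (SE 0.08, adjusted p = 0.0242) and Bzw1 by 0.33 (SE 0.09, adjusted p = 0.0286). The 2 that were higher at an unadjusted p under 0.05 were the eIF2 subunit Eif2s2 (0.36, adjusted p = 0.0989, limma) and Mcts1 (0.30, adjusted p = 0.0619). Without control library 1 the number that fell was 2 and without control library 2 it was 4. With the replicate block, and likewise without the libraries numbered 0, 9 fell and 2 rose, of 16 genes (all genes: 14.1% lower and 16.2% higher with the block, 20.5% and 20.9% without digit 0).

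Of 15 activators and inhibitors of the kinases 2 rose and 3 fell, with a median of -0.004, and without the libraries numbered 0 there were 2 that rose and 5 that fell (all genes: 20.9% and 20.5%). Hspa5 encodes the ER chaperone BiP, which keeps PERK inactive, and it had mean levels of 9.85 ± 0.04 with shRNA1, 9.65 ± 0.17 with shRNA2 and 10.69 ± 0.08 in control libraries (SD, n = 3 each). It fell by 0.95 (SE 0.08, adjusted p = 0.000438, limma). Dnajc3, whose product inhibits PKR and PERK, fell by 0.63 (SE 0.09, adjusted p = 0.00342, limma). The remaining 3, named after their values were seen, were Hsp90aa1, a chaperone, which fell by 0.53 (SE 0.16, adjusted p = 0.0445), and Prkra and Nck2, which rose by 0.31 (SE 0.08, adjusted p = 0.0339) and 0.29 (SE 0.08, adjusted p = 0.0303). The product of Prkra activates PKR. Both rises were lost without control library 0, 1 or 2 and without shRNA2 library 1 or 2, where 0 genes of the list were called higher, and 1 of them was lost without shRNA1 library 1 or 2 or shRNA2 library 0. The fall of Hsp90aa1 was lost without shRNA1 library 1 (adjusted p = 0.0593), shRNA2 library 0 (0.0668), 1 (0.0709) or 2 (0.0630) and control library 1 (0.191) or 2 (0.170).

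Around the cap-binding complex, 3 of 19 genes rose and 1 fell, with a median of -0.06. Pdcd4, an inhibitor of the helicase eIF4A, rose by 0.77 (SE 0.11, adjusted p = 0.00261, limma). Eif4g1, the scaffold that 4E-BP1 competes with for eIF4E, fell by 0.38 (SE 0.08, adjusted p = 0.0106, limma), a call lost without control library 1 (0.0671) or 2 (0.0562). Paip2 and Eif4a2, named after their values were seen, rose by 0.29 (SE 0.07, adjusted p = 0.0279) and 0.40 (SE 0.12, adjusted p = 0.0480). Without control library 1 or 2, shRNA1 library 2 or shRNA2 library 1 or 2, 1 gene of this list rose. With the replicate block 3 rose and 5 fell (all genes: 16.2% and 14.1%), and without the libraries numbered 0 there were 4 and 7 (all genes: 20.9% and 20.5%).

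In the list of mTORC1, the TSC complex and downstream kinases 2 of 16 genes rose and 0 fell (also 0 at an unadjusted p under 0.05, limma), with a median of -0.05. With digit 0 left out, 4 rose and 3 fell (all genes: 20.9% and 20.5%). Eef2k, which slows elongation by phosphorylating the factor eEF2, rose by 0.61 (SE 0.08, adjusted p = 0.00234, limma). Tbc1d7, a TSC subunit that was named after its value was seen, rose by 0.29 (SE 0.08, adjusted p = 0.0366), and 1 gene rose without any one control library, shRNA1 library 1 or shRNA2 library 1 or 2. Of 28 genes for amino acid sensing upstream of mTORC1 1 rose and 3 fell, with a median of 0.09. Sesn1, the paralog of Sesn2, rose by 0.40 (SE 0.11, adjusted p = 0.0292, limma), Fnip2 and Seh1l fell by 0.29 (SE 0.08, adjusted p = 0.0306) and 0.26 (SE 0.07, adjusted p = 0.0415), and Fnip1, named after its value was seen, fell by 0.23 (SE 0.07, adjusted p = 0.0431). Without control library 1 or 2, or without shRNA2 library 0 or 1, 0 genes of this list fell and 0 rose, and 1 fell without control library 0 or shRNA2 library 2. The replicate block gave 3 that rose and 3 that fell (all genes: 16.2% and 14.1%), and leaving out digit 0 gave 4 and 4 (all genes: 20.9% and 20.5%).

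The list of ATF4 and genes known as its targets held 16 measured genes besides the 9: 12 rose and 0 fell (13 and 0 at an unadjusted p under 0.05, limma), with a median of 1.24. ATF4 is known to drive several of the genes described here as well, and the list was chosen with earlier results known. Atf4 had mean levels of 8.90 ± 0.45 with shRNA1, 9.06 ± 0.26 with shRNA2 and 7.83 ± 0.21 in control libraries (SD, n = 3 each) and rose by 1.15 (SE 0.19, adjusted p = 0.00543, limma). Nupr1 rose by 3.50 (SE 0.19, adjusted p = 4.72e-05), Trib3 by 2.67 (SE 0.24, adjusted p = 0.000433), Chac1 by 2.48 (SE 0.30, adjusted p = 0.00186), Ddit3 by 1.33 (SE 0.09, adjusted p = 0.000166) and Slc3a2 by 0.76 (SE 0.10, adjusted p = 0.00261). Ddit3 encodes CHOP, the stress factor that can induce Ppp1r15a. The 4 genes that did not pass were Atf3 (1.40), Cebpb (0.47), Psat1 (0.43) and Phgdh (0.28). Without control library 1 or 2 the number that rose was 7, and without the libraries numbered 0, where 20.9% of all genes rose, it was 16.

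**Figure D5:**
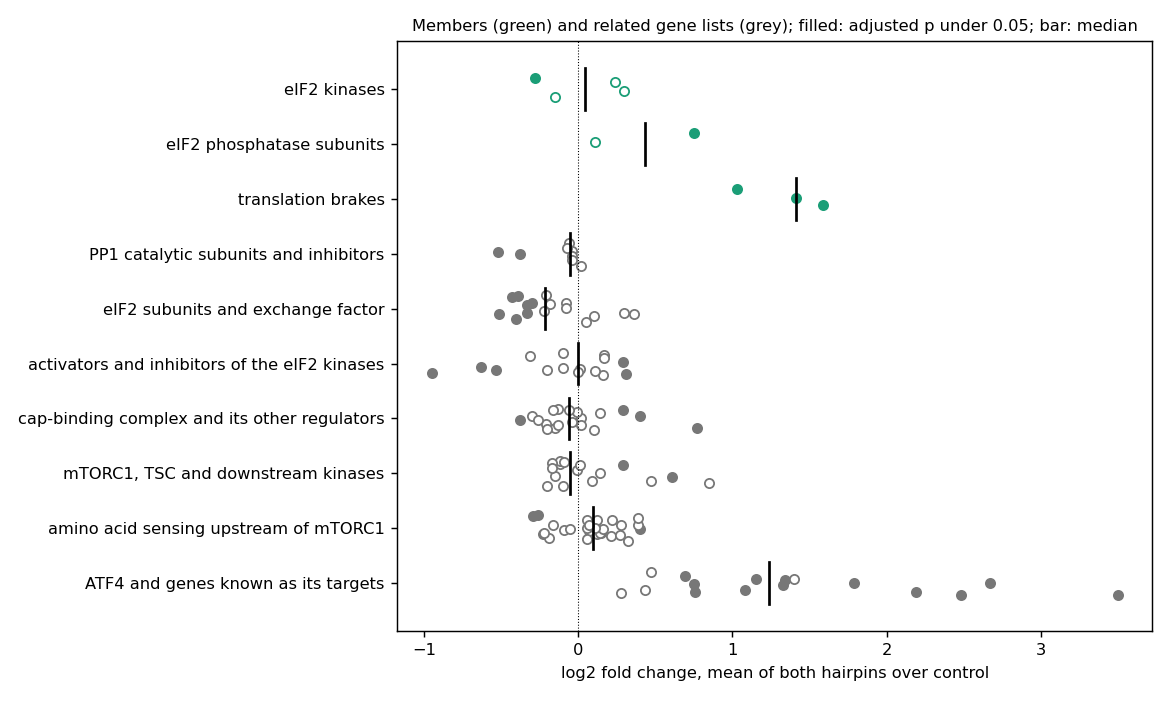
Log2 fold change in the mean of both hairpins over control (horizontal axis) of every measured gene in the 3 groups of the 9 genes (green) and in the 7 related lists (grey); filled points had an adjusted p under 0.05 and bars mark medians. The brakes (1.03 to 1.59) and the ATF4 list (median 1.24) sit to the right, and the medians of the other 6 related lists lie between -0.22 and 0.09.

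For each called gene, the 3 genes most like it were found by the root mean square (RMS) difference of centred log2 values over the 9 libraries, among 5381 genes with a mean level above the median gene. This is a description, and the libraries share their groups and digits. Closest to Ppp1r15a were Pros1 (RMS difference 0.08), Slc1a5 (0.09) and Mid1ip1 (0.10), where Ppp1r15a itself spread by 0.37 about its mean. Closest to Eif4ebp1 (own spread 0.51) were Jdp2 (0.14), Slc3a2 (0.15) and Atf4 (0.15). Sesn2 (own spread 0.82) was nearest to Pck2 (0.17), Slc1a4 (0.24) and Atf4 (0.24). Ddit4 (own spread 0.71) had more distant neighbours among the genes searched, Dnajc1 (0.25), Jdp2 (0.25) and Stat3 (0.29). Genes at or below the median level were not searched, and closer ones may lie there.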

How the data were processed

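Messenger RNA of 9 libraries was analysed from 1 deposited table of log2 values. Per the submitters' processing notes the tools were kallisto, FastQC and limma (no version stated). Which build, annotation, strand setting and low-gene filter they used is not given in the sources used here. Raised to the power of 2, the deposited log2 values of the authors summed to 969465 to 997650 per hairpin library and 1014944 to 1045849 per control library. The mean log2 value went the other way, at 5.266 to 5.282 in hairpin libraries and 5.221 to 5.244 in control libraries. The number of reads is unknown, so precision rests on the spread between libraries. The authors' fold changes, p-values and t scores in the deposited table were used only to describe that table and to link columns to hairpins. Columns name the control and the digit but not the hairpin: the fold changes headed shRNA1 lay within 0.05 of the columns assigned to shRNA1 for 99.95% of genes, and for 26.57% against the other columns; if those headings were exchanged, the hairpin names would be exchanged throughout.

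limma 3.58.1 in R 4.3.3 fitted a mean per group over all 9 libraries, the variance prior following the mean level (3.3 prior degrees of freedom, 6 residual ones). The code was tried on simulated data with independent noise in each library. Those data held no difference by digit, so the trial does not give the error rate of the fit on these libraries. The Benjamini-Hochberg adjustment ran over all 10762 genes, no filter or pseudocount was added, and intervals are 95% confidence intervals. No label says that replicates were separate cultures, so a p-value here reflects only how far these libraries vary, possibly for technical reasons. Deviations of libraries with the same digit correlated across genes at 0.126 to 0.644 (9 pairs). Those with other digits correlated at -0.629 to 0.531 (18 pairs). Libraries numbered 0 stood apart, but digits 1 and 2 were not clearly paired across groups. For example, shRNA2 library 1 correlated at 0.353 with shRNA1 library 2 and at 0.126 with shRNA1 library 1. The other way, shRNA1 library 1 correlated at 0.22 with control library 1 and at 0.128 with control library 2. The block and the same-digit differences take the digits as pairs, which no label states. The alternatives were a replicate block, a fit of only the groups compared, no intensity trend, removal of the lowest 25% of genes, centred libraries, a pseudocount of 1, no libraries numbered 0, and each library left out. The 9 genes, the gene lists and the tests were chosen with earlier results of these data known. Genes were named by rule: Decr2, all 9, and from each list up to 6 called with both hairpins, failing that 3 called in their mean, by adjusted p. Gene positions and overlaps are those of GENCODE M21 (GRCm38), which may differ from the authors' build.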

Additional observations from a re-analysis of the deposited data

Results flagged for a closer look

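Decr2 differed between the hairpins: it was lower with shRNA2 than with shRNA1, with a log2 difference of -1.66 (SE 0.23, adjusted p = 0.0233, limma, over all 9 libraries). That call was lost in a fit of only the groups compared (adjusted p = 0.116), without shRNA1 library 1 (0.0804) or 2 (0.120), without shRNA2 library 0 (0.0555), 1 (0.137) or 2 (0.0708) and without control library 1 (0.0591) or 2 (0.0516), with differences of -1.84 to -1.49. Ddit3 also differed between the hairpins, higher with shRNA2 than with shRNA1 by 0.83 (adjusted p = 0.0167, limma). Its call was lost without shRNA1 library 1 (adjusted p = 0.0835) or 2 (0.0719) and without shRNA2 library 1 (0.116) or 2 (0.0830). The difference of Ddit4 between the hairpins, 0.49, was not called (adjusted p = 0.189, limma).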

How the results depend on the processing

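The number of genes called moved with the processing. The calls of Ppp1r15a, Eif4ebp1, Sesn2 and Ddit4 with each hairpin held, and how many of all genes held likewise was not counted. With the replicate block, genes called numbered 2646 with shRNA1 (1336 without it), 2583 with shRNA2 (1392), 3263 in the mean (1892), 201 between the hairpins (49) and 1659 with both (813); among the 9 genes it changed no call with either hairpin other than that of Eif2ak1. Without the libraries numbered 0 the counts were 3711, 4011, 4452, 955 and 2547 in the same order. Of the 9 genes, 8 were then called with shRNA1 (4 as reported), 6 with shRNA2 (4), 8 in the mean (5), 1 between the hairpins (0) and 6 with both (4). The shares of all genes were 34.5% with shRNA1, 37.3% with shRNA2, 41.4% in the mean and 8.87% between the hairpins. With both hairpins, 2547 of all 10762 genes were called in that fit. With only the groups compared in the fit, 675 were called with shRNA1, 6 between the hairpins and 480 with both. Leaving out 1 library gave 328 to 1579 genes with shRNA1, 406 to 2450 with shRNA2, 616 to 2642 in the mean, 3 to 94 between the hairpins and 188 to 1062 with both. The sign changed only in differences not called over all 9 libraries. Without the libraries numbered 0, the shRNA2 over shRNA1 difference was -0.002 for Eif2ak1, -0.02 for Eif2ak2, -0.03 for Eif2ak3, -0.03 for Ppp1r15b and -0.09 for Sesn2. With 1 library left out it ran from -0.05 to 0.07 for Eif2ak1, -0.01 to 0.05 for Eif2ak3, -0.15 to 0.19 for Ppp1r15b, -0.10 to 0.17 for Eif4ebp1 and -0.17 to 0.27 for Sesn2. Ppp1r15b over control ran from -0.05 to 0.30 with shRNA1 and from -0.01 to 0.23 in the mean, both called without the libraries numbered 0 (0.18, adjusted p = 0.0291, and 0.16, adjusted p = 0.0193, limma). The cause was not tested. A fit that leaves out 1 library of a group takes the spread from the other groups too. Depth is unknown, and with 3 libraries a group the SE of a kinase's log2 fold change with 1 hairpin was 0.07 to 0.14.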
